A study of Mus musculus with 8 samples.

Results

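Imprinted genes are transcribed mainly or wholly from the allele of 1 parent. A list of 36 mouse imprinted genes was described here across arrays of embryonic stem cells (ESC) and of hematopoietic stem cells (HSC). Control groups carried a loxP-flanked allele of Zfx, and the others were labelled Zfx-null (ESC) or Zfx-cko (HSC). Zfx is an X-linked gene for a zinc finger transcription factor. Members were found by their symbol in the platform annotation, and where a gene had several probe sets, the one brightest on average over all 8 arrays stood for it. Of the 36 genes, 33 had a probe set of their own among 18193 genes on the array. No probe set carried the symbol of H19, Zrsr1 or Dio3 alone.

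The arrays fell into 4 groups of 2 Affymetrix mouse genome arrays. ESC clones labelled Zfx-null were set against ESC clones labelled Zfx-flox, which carry the loxP-flanked allele, and both grew without feeder cells on gelatin, with LIF and a serum replacement (Knockout SR) at 15%. HSC labelled Zfx-cko were bone marrow cells of Mx1-Cre+ Zfx flox/y males, and HSC labelled Zfx-flox came from Cre- Zfx flox/y littermates. Both HSC groups were sorted as Lin- Sca-1+ c-Kit+ cells from pooled animals 4 days after the last injection of pI·C, the double-stranded RNA that turns on the interferon-inducible Mx1-Cre transgene. Cre was present in the Zfx-cko group only, and the ages of the animals are not given in the labels. ESC RNA had 1 round of amplification and HSC RNA had 2, so amplification and cell type cannot be told apart. Samples were hybridized in duplicate, and nothing in the labels says that the arrays of a group came from separate cultures or animals. What the p-values weigh is thus the scatter among arrays, and that scatter may be technical.

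At an imprinted locus a control region carries DNA methylation from 1 parent's germ cells, and this mark sets which allele of the neighbouring genes is used. Many paternally expressed genes favour growth and many maternally expressed genes restrain it, and imprinted loci often hold both kinds side by side with a long noncoding RNA. Cultured ESC are known for losing or gaining imprints, and several imprinted genes, Cdkn1c among them, are known for keeping HSC quiescent. The arrays measure total RNA and do not separate the parental alleles, so a change of imprinting cannot be told apart from a change in the output of the usual allele. In bulk RNA of this kind, fewer cells of a type and less RNA per cell cannot be told apart.

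The promoters of members with large changes in ESC show how unlike these genes are at their starts. The 250 bases before the RefSeq start (GRCm38.p6) are printed 5′ to 3′ on the gene's strand, with capitals marking CpG dinucleotides, the sites at which imprints are written. Nnat lies at chr2:157559828-157560077 on the plus strand and Plagl1 at chr10:13090582-13090831 on the plus strand. Grb10 has 2 annotated starts on the minus strand, with windows at chr11:12037421-12037670 and chr11:12027972-12028221. The window of Peg3, added after its values were seen because Usp29 starts close by, lies at chr7:6730420-6730669 on the minus strand.
Nnat: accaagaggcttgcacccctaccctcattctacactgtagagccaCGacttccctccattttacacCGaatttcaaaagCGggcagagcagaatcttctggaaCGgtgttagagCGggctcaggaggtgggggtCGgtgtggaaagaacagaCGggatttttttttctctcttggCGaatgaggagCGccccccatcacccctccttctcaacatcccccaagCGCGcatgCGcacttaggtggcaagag
Plagl1: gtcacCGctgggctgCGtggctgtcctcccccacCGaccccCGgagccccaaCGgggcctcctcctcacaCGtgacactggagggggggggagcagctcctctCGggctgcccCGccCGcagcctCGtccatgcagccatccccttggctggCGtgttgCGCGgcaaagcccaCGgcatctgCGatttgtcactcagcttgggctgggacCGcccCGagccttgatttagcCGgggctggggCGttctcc
Grb10 start 1: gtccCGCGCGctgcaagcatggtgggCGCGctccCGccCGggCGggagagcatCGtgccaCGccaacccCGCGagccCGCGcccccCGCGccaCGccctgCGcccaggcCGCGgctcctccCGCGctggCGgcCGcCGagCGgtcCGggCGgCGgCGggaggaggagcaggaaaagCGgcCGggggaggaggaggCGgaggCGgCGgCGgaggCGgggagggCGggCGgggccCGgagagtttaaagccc
Grb10 start 2: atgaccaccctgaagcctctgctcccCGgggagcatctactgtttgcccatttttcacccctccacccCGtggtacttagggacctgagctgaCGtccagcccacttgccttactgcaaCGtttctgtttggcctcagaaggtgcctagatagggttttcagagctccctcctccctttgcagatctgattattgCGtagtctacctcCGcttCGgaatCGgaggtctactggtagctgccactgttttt
Peg3: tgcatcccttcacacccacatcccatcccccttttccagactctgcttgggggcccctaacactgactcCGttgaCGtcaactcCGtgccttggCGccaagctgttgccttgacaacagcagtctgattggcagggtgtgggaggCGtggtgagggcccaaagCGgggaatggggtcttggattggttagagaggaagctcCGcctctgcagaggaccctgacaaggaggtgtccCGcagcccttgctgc
The window of Grb10 start 1 held 40 CpGs and that of start 2 held 8. Plagl1 had 19 CpGs, Nnat 12 and Peg3 8. The median was 10 over 46 windows of 30 members, and 6 over 32851 windows of all genes, with quartiles of 2 and 16. Each window was searched for AGGCCT, the core letters of the Zfx binding motif, which reads the same on both strands. The letters stood in 5 of 46 member windows (10.9%) and in 2857 of 32851 windows of all genes (8.70%). The 5 members were Ppp1r9a, Mest, Kcnq1ot1, Zrsr1 and Igf2r, and none of the 5 printed windows held them.

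Signals are the scanner software's linear values, scaled so that every array had a trimmed mean of 250. Tests used log2(signal + 14.2), where 14.2 is the 25th percentile of all values, so changes of genes near that level are understated. A gene was tested in a cell type where its mean reached the 40th percentile of probe sets, a signal of 39.1 in ESC and 25.4 in HSC. Of the 33 members, 18 were tested in both cell types, 11 in ESC alone and 1, Asb4, in HSC alone. Nap1l5, Zim1 and Snrpn stayed below the level in both, by the probe sets of their own. Probe sets annotated to both Snurf and Snrpn were assigned to neither gene. The brightest of these was above the level in both cell types, averaging 2269 in Zfx-flox ESC and 1265 in Zfx-flox HSC. A gene was called where limma's adjusted p over all genes tested was under 0.05. Adjusted p-values for further probe sets of a gene are over all probe sets tested.

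Array pairs of a group correlated at 0.980 to 0.987 on the log2 scale, and signals over 14.2 made up 69.4% to 78.9% of the probe sets. The log2 ratio of the Gapdh 5′ probe set over its 3′ probe set was 0.41 and 0.38 in Zfx-null ESC and 0.44 and 0.38 in Zfx-flox ESC. It was -4.68 and -4.39 in Zfx-cko HSC and -4.18 and -4.25 in Zfx-flox HSC. The 4 probe sets annotated to Zfx alone were all higher in Zfx-null ESC, by 0.79 to 1.65 on the log2 scale. A further probe set annotated to both Zfx and Zfa-ps read 1.32 and 0.878 in Zfx-null ESC, against 285 and 298 in Zfx-flox ESC. The other two probe sets annotated to both changed by 1.33 and -0.12 in ESC. In HSC the joint probe set that was low in Zfx-null ESC was near the background in both groups. Of the 4 annotated to Zfx alone, 1 was higher in Zfx-cko HSC, with 1192 and 1209 against 696 and 752 in Zfx-flox HSC (0.72, adjusted p = 0.00104). The other 2 tested there did not pass, 1 of them at -0.49 (adjusted p = 0.104). The sources used here do not give which part of the transcript each covers, so none was used as a check of the labels.

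Many members had lower signals in HSC than in ESC. Among the 30 members past the level in either cell type, 14 were at least 4-fold lower in Zfx-flox HSC than in Zfx-flox ESC, where 11.9% of all genes were, and 0 were at least 4-fold higher, where 6.46% of all genes were. The median difference of these members was -1.77 on the log2 scale, beside -0.20 over all genes, with no test because of the unequal amplification. Igf2, the growth factor whose paternal allele is active, averaged 12.8 in Zfx-flox HSC and 4116 in Zfx-flox ESC. Meg3, a maternal long noncoding RNA, averaged 85.3 and its neighbour Rian 17.3 in Zfx-flox HSC, against 5249 and 2077 in Zfx-flox ESC. Mest averaged 54.0 in Zfx-flox HSC and 3287 in Zfx-flox ESC. Gnas, which encodes the stimulatory G protein subunit, was at 2064 in Zfx-flox HSC and 2188 in Zfx-flox ESC, and Ppp1r9a, the actin-binding protein neurabin, at 604 and 602. Ube3a, a ubiquitin ligase, was at 2422 in Zfx-flox HSC and 1291 in Zfx-flox ESC. The imprinted genes were thus not uniformly silent in HSC. In the probe set used, Gnas, Ube3a, Cd81, Grb10, Ppp1r9a, Impact and Ndn stayed above 300 in Zfx-flox HSC. These levels depended on the probe set. In Zfx-flox HSC, another Ndn probe set averaged 31.6 and a further one 322, and the other Grb10 probe sets averaged 19.2 and 27.8. Another Ppp1r9a probe set averaged 664, and a Kcnq1ot1 probe set that was not used averaged 519.

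**Figure D1:**
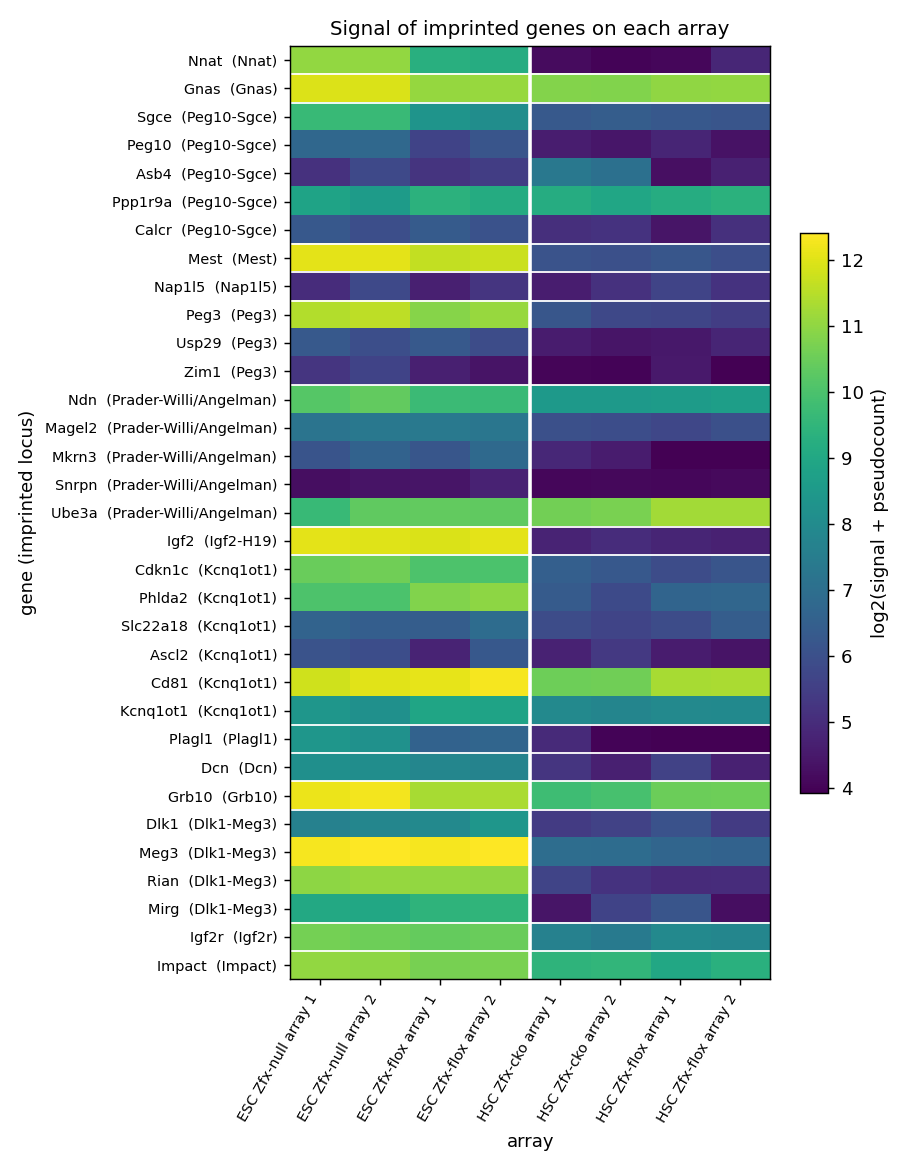
Heat map of log2(signal + pseudocount) for the 33 imprinted genes with a probe set (rows, ordered by imprinted locus) on each of the 8 arrays (columns), ESC left and HSC right. Igf2, Meg3, Rian, Mest and Peg3 are bright on all ESC arrays and dark on all HSC arrays, and Gnas and Ube3a are bright in both.

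The comparison of Zfx-null with Zfx-flox ESC asks how the imprinted genes stood in the ESC labelled as null for Zfx. In ESC, 11 of the 29 members tested were higher in Zfx-null cells, 3 were lower and 15 did not pass. Among all 12676 genes tested, 15.7% were called higher and 14.9% lower, 30.6% in all. The median change of the members was 0.03 on the log2 scale, beside -0.03 over all genes. Active alleles were labelled from general knowledge, not from a source for these cell types. Of 14 members labelled paternally expressed 8 were higher and 1 was lower, with a median of 0.35. Of 13 members labelled maternally expressed 1 was higher and 2 were lower, with a median of -0.09. Which allele these cells used was not measured for any member. These counts carry no test, since the members were chosen with results known.

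Nnat encodes neuronatin, a small membrane protein of the endoplasmic reticulum that is paternally expressed and best known from developing brain. Its signal was 2110.3 and 2094 in Zfx-null ESC, against 614 and 568 in Zfx-flox ESC. The groups lay far apart, and the change was 1.81 ± 0.23 (log2, SE, adjusted p = 0.000782). On the 4 HSC arrays Nnat lay between 1.77 and 14.4 and was not tested.

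Plagl1 on chromosome 10 encodes a paternally expressed zinc finger transcription factor that restrains the cell cycle. It read 324 and 286 in Zfx-null ESC and 83.0 and 89.0 in Zfx-flox ESC, a change of 1.67 ± 0.31 (log2, SE, adjusted p = 0.00453). This rested on 1 of its 3 probe sets, since the other 2 stayed below the level. Averaged over all 3, the change was 0.35 (adjusted p = 0.372).

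At the Peg10-Sgce locus on chromosome 6, Sgce and Peg10, labelled paternally expressed, were higher. Of the members labelled maternally expressed and tested, Ppp1r9a was lower and Calcr did not pass. Among neighbours described further below, Pon3 and Pon2 were higher in ESC (1.08 and 0.24) and Casd1 was lower (-0.36). Sgce, a membrane glycoprotein of the sarcoglycan family, read 795 and 814 in Zfx-null ESC, against 305 and 259.8 in Zfx-flox ESC (log2 change 1.47 ± 0.12 SE, adjusted p = 0.000115). Peg10, a gene derived from a retrotransposon that placental growth needs, read 95.1 and 95.9 in Zfx-null ESC, against 35.7 and 57.4 in Zfx-flox ESC (0.88 ± 0.28, adjusted p = 0.0464). The Zfx-flox arrays of Peg10 differed more from each other than those of Sgce did. Ppp1r9a read 446 and 367 in Zfx-null ESC, against 646 and 559 in Zfx-flox ESC (-0.55 ± 0.13, adjusted p = 0.0126). All 3 of its tested probe sets were lower, the other two by -0.84 and -0.83. The mean of all 5, which includes 2 below the level, changed by -0.35 (adjusted p = 0.111). Calcr, the calcitonin receptor, overlapped between the groups, with 63.2 and 48.9 in Zfx-null ESC and 67.7 and 53.0 in Zfx-flox ESC.

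Grb10 and Gnas are imprinted in opposite directions in different tissues or transcripts, and both rose. Grb10 on chromosome 11 encodes an adaptor that dampens insulin receptor signalling, and it read 4623 and 4894 in Zfx-null ESC, against 2546 and 2585 in Zfx-flox ESC. Its change was 0.89 ± 0.07 (log2, SE, adjusted p = 9.52e-05), while its other two probe sets changed by 0.57 and 0.61 without passing. Gnas read 3986 and 3887 in Zfx-null ESC, against 2167 and 2209 in Zfx-flox ESC, a change of 0.84 ± 0.05 (adjusted p = 3.51e-05). A second tested Gnas probe set, far fainter at 70.8 and 59.4 in Zfx-null ESC, changed by -0.22 and did not pass (adjusted p = 0.680). Averaged over all 5 Gnas probe sets, 3 of them below the level in ESC, the change was 0.12 (adjusted p = 0.648). Both genes separated fully between the groups in the main probe set.

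On chromosome 7 the Prader-Willi/Angelman, Peg3 and Kcnq1ot1 loci each held called and uncalled members. Ndn, a paternally expressed growth suppressor of the Prader-Willi/Angelman locus, read 1139 and 1322 in Zfx-null ESC, against 819.6 and 812 in Zfx-flox ESC (log2 change 0.58 ± 0.09 SE, adjusted p = 0.00155). It had the most tested probe sets of the members called in ESC, and 4 of these 6 were higher. Its neighbours Magel2, with 133 and 146 in Zfx-null ESC against 149 and 138 in Zfx-flox ESC, and Mkrn3, with 55.7 and 81.8 against 59.6 and 98.3, overlapped between the groups. Ube3a read 785 and 1277 in Zfx-null ESC, against 1305 and 1277 in Zfx-flox ESC. Its 2 Zfx-null arrays disagreed (-0.36 ± 0.18, adjusted p = 0.172), and without the second Zfx-null array the change was -0.71 (adjusted p = 0.00144). Of its 6 probe sets tested 1 was lower (-0.58, adjusted p = 0.0127), and the other 5 ranged from -0.45 to 0.07 without passing.

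Peg3, a paternally expressed zinc finger protein, read 2779.8 and 3064 in Zfx-null ESC, against 1863 and 2203 in Zfx-flox ESC (0.52 ± 0.16, adjusted p = 0.0366). Another Peg3 probe set rose by 0.82 (adjusted p = 0.0105). The remaining one tested changed by 0.50 and did not pass (adjusted p = 0.163). The mean of all 5 Peg3 probe sets changed by 0.40 and did not pass either (adjusted p = 0.0815). Usp29, a deubiquitinase gene whose start lies 164 bases from that of Peg3 on the opposite strand, read 65 and 47.8 in Zfx-null ESC and 64.8 and 45.8 in Zfx-flox ESC. It overlapped between the groups and changed by 0.03 ± 0.27 (adjusted p = 0.956). Whether the changes of the 2 genes differ was not tested.

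The Kcnq1ot1 locus, also on chromosome 7, held changes in both directions. Kcnq1ot1, the paternal long noncoding RNA that silences its neighbours on the same chromosome, read 317 and 279 in Zfx-null ESC, against 472 and 449 in Zfx-flox ESC (-0.60 ± 0.10, adjusted p = 0.00288). Its other two tested probe sets changed by -0.44 and -0.53 without passing, and the mean of all 6 changed by -0.40 (adjusted p = 0.0843). Cdkn1c, a maternally expressed inhibitor of cyclin-dependent kinases, read 1424 and 1497 in Zfx-null ESC, against 1032 and 1013 in Zfx-flox ESC (0.51 ± 0.12, adjusted p = 0.0141). Phlda2, a maternally expressed brake on placental growth, went the other way, with 1045 and 1026 in Zfx-null ESC against 1772 and 2002 in Zfx-flox ESC (-0.85 ± 0.16, adjusted p = 0.00521). Cd81, a tetraspanin of the cell surface, read 3580.3 and 4219 in Zfx-null ESC and 4361 and 5003 in Zfx-flox ESC and did not pass (-0.26 ± 0.09, adjusted p = 0.0598). It passed without the second Zfx-null array (-0.38, adjusted p = 0.0234) and without the first Zfx-flox array (-0.36, adjusted p = 0.0409). Slc22a18, a transporter, and Ascl2, a transcription factor, overlapped between the groups.

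Mest, a hydrolase-like protein whose paternal allele is active, read 4317 and 4314 in Zfx-null ESC, against 3207 and 3366 in Zfx-flox ESC (0.39 ± 0.09, adjusted p = 0.013). Impact, which restrains the Gcn2 branch of the amino acid starvation response, read 2109.6 and 1977 in Zfx-null ESC, against 1630.5 and 1645 in Zfx-flox ESC (0.32 ± 0.10, adjusted p = 0.0409). Both genes separated between the groups by small folds in the probe set used. A second Impact probe set tested in ESC, far fainter, changed by -0.33 and did not pass (adjusted p = 0.206). The mean of all 3 Impact probe sets changed by 0.29 (adjusted p = 0.0917).

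The Dlk1-Meg3 and Igf2-H19 loci showed no called member in ESC. Meg3 read 5002 and 5388 in Zfx-null ESC and 5033 and 5464 in Zfx-flox ESC, and Rian 1979 and 2148 against 2112 and 2043, each with a change of -0.01. Of the 11 Meg3 probe sets tested, 1 was higher in Zfx-null ESC (0.91, adjusted p = 0.0270). Dlk1, a membrane ligand of the Notch family, read 185 and 209.9 in Zfx-null ESC, against 227 and 317 in Zfx-flox ESC (-0.42 ± 0.25, adjusted p = 0.251). Mirg, the distal noncoding RNA of the locus, read 515 and 500.4 in Zfx-null ESC, against 682 and 695 in Zfx-flox ESC, without overlap (-0.43 ± 0.58, adjusted p = 0.626). Its standard error came from the HSC arrays, where it ranged from 4.78 to 57.8; without the first Zfx-flox HSC array another probe set stood for it (-0.46, adjusted p = 0.0377), and a fit of the ESC arrays alone gave an adjusted p of 0.0108. Igf2 read 4241 and 4094 in Zfx-null ESC and 3928 and 4305 in Zfx-flox ESC, a change of 0.02 ± 0.11 (adjusted p = 0.917). The probe set annotated jointly to Mir675 and H19, whose transcript comes from the maternal allele beside Igf2, read 301 and 383 in Zfx-null ESC, against 1266 and 1446 in Zfx-flox ESC (-1.95 ± 0.15, adjusted p = 0.000123). It was assigned to neither gene and is not among the 29 members tested. Dcn, the matrix protein decorin on chromosome 10, read 272 and 255 against 209.9 and 196, without overlap (0.35 ± 0.31, adjusted p = 0.432). As for Mirg, the scatter of its faint HSC arrays, which ranged from 11.4 to 33.7, entered the standard error. Igf2r, the receptor that clears Igf2, changed by 0.14 ± 0.10 (adjusted p = 0.356).

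**Figure D2:**
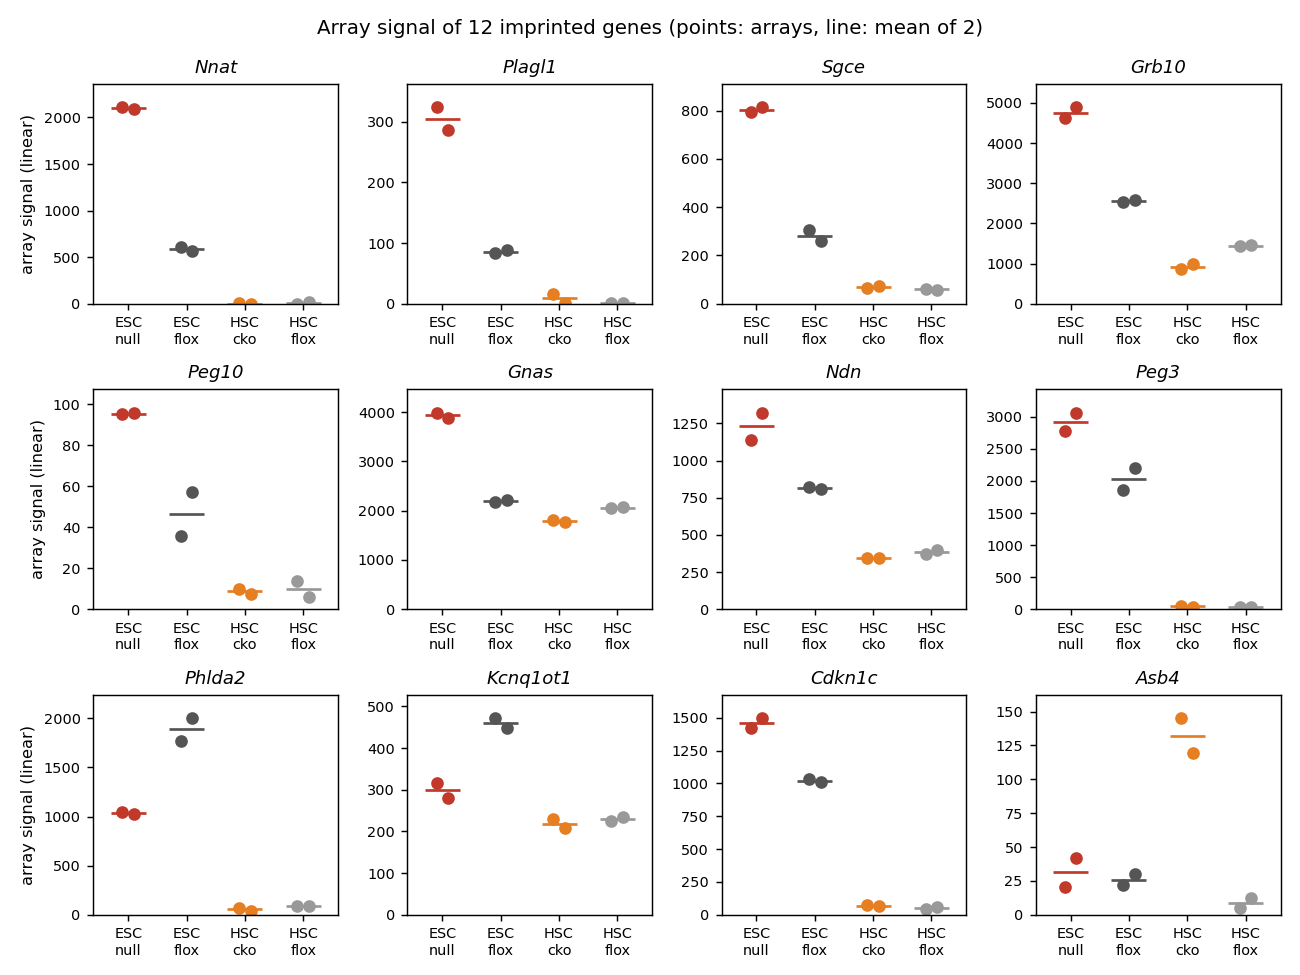
Linear array signal of 12 imprinted genes in the 4 groups, with 1 point per array and a line at the mean of 2 arrays. Nnat, Plagl1, Sgce, Grb10, Peg10, Gnas, Ndn, Peg3 and Cdkn1c lie higher in Zfx-null than in Zfx-flox ESC, Phlda2 and Kcnq1ot1 lie lower, and Asb4 is high in Zfx-cko HSC alone.

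Marker genes of other cell types moved with the same ESC groups. Of 9 fibroblast and stroma markers 6 were higher in Zfx-null ESC, and their summed signal was 29721 and 32861 in Zfx-null ESC, against 17572 and 17999 in Zfx-flox ESC. Of 7 pluripotency markers 4 were lower, with a sum of 11551 and 11846 in Zfx-null ESC against 19466 and 19441 in Zfx-flox ESC. Of 8 primitive endoderm markers tested 1, Dab2, was higher. No marker of the fibroblast and pluripotency lists was near 0 in ESC, and the part of these markers in the changes of the imprinted genes was not tested.

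The calls of 6 ESC members ended when a single array was left out. Peg3 and Cdkn1c lost theirs without any 1 of the 4 ESC arrays, at adjusted p-values of 0.0578 to 0.196 for Peg3 and 0.0523 to 0.0789 for Cdkn1c. Impact lost its call without any 1 of the ESC arrays or either Zfx-cko HSC array (0.0630 to 0.172). Peg10 lost its call without the first Zfx-flox ESC array, either Zfx-null ESC array or either Zfx-cko HSC array (0.0668 to 0.221). Mest lost it without the first Zfx-flox array or either Zfx-null array (0.0619 to 0.0781), and Ppp1r9a without the first Zfx-flox array or the second Zfx-null array (0.0760 to 0.0810).

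In HSC the comparison sets cells of Mx1-Cre+ animals against cells of Cre- littermates, both after pI·C. The extent of Zfx deletion in the sorted cells was not checked here. Of the 19 members tested, 4 were higher in Zfx-cko HSC, 6 were lower and 9 did not pass. Among all 12533 genes tested, 22.6% were called higher and 19.8% lower, 42.4% in all. The median change of the members was -0.15 on the log2 scale, beside 0.03 over all genes. By the same labels, of 8 members labelled paternally expressed 1 was higher and none was lower. Of 9 labelled maternally expressed 3 were higher and 4 were lower. Allele use was not measured in HSC either.

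Asb4, a maternally expressed gene of the Peg10-Sgce locus for a substrate adaptor of ubiquitin ligases, stood out on the Zfx-cko HSC arrays. It read 145 and 119 in Zfx-cko HSC, against 5.05 and 12.1 in Zfx-flox HSC, where it lay below the pseudocount. Asb4 reached the level for testing only through the Zfx-cko arrays, so it had to differ, and its fitted change of 2.70 ± 0.31 (log2, SE) is given as a description, although it is counted among the 4. In ESC it was faint in both groups, with 20.8 and 42.1 in Zfx-null and 22.2 and 29.8 in Zfx-flox cells.

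Grb10 and Gnas were lower in Zfx-cko HSC. Grb10 read 865 and 981 in Zfx-cko HSC, against 1433 and 1467 in Zfx-flox HSC (-0.65 ± 0.07, adjusted p = 0.00016). The other Grb10 probe set tested there changed by 0.04 and did not pass, and the mean of all 3 changed by -0.15 (adjusted p = 0.212). Gnas read 1806 and 1764 in Zfx-cko HSC, against 2045 and 2083 in Zfx-flox HSC, a small but separated change (-0.21 ± 0.05, adjusted p = 0.0128). Cd81 read 1473 and 1511 in Zfx-cko HSC, against 2526 and 2564 in Zfx-flox HSC (-0.76 ± 0.09, adjusted p = 0.00025). Cd81 was among the best separated members in HSC, with array pairs that lay close together.

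Ube3a read 1546 and 1659 in Zfx-cko HSC, against 2432 and 2412 in Zfx-flox HSC (-0.59 ± 0.18, adjusted p = 0.0283), and 3 of its 6 probe sets were lower. Igf2r read 189 and 154 in Zfx-cko HSC, against 229 and 212 in Zfx-flox HSC (-0.35 ± 0.10, adjusted p = 0.0258), and both of its probe sets were lower. Phlda2 read 68.2 and 42.1 in Zfx-cko HSC, against 85.9 and 90.9 in Zfx-flox HSC (-0.59 ± 0.16, adjusted p = 0.019). All 3 genes separated between the groups, though the Zfx-cko arrays of Phlda2 were far apart.

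Cdkn1c read 75.7 and 63.1 in Zfx-cko HSC, against 45.4 and 57.8 in Zfx-flox HSC (0.35 ± 0.12, adjusted p = 0.0471). Impact read 693 and 726 in Zfx-cko HSC, against 498 and 619.6 in Zfx-flox HSC (0.34 ± 0.10, adjusted p = 0.0216), and 2 of its 3 probe sets were higher. Meg3 read 109.7 and 106 in Zfx-cko HSC, against 89.0 and 81.6 in Zfx-flox HSC (0.30 ± 0.08, adjusted p = 0.0144). These rises were small, and those of Cdkn1c and Meg3 were at levels far below their ESC levels. Of 7 Meg3 probe sets tested, 2 were higher, the other by 1.07 (adjusted p = 0.000257), and 5 did not pass. Averaged over all 11, Meg3 changed by 0.07 in HSC (adjusted p = 0.662). The mean of all 3 Impact probe sets changed by 0.31 in HSC and did not pass (adjusted p = 0.0553).

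Of the members that did not pass, Peg3 read 58.9 and 40.1 in Zfx-cko HSC, against 37.4 and 29.9 in Zfx-flox HSC (0.40 ± 0.16, adjusted p = 0.073). Without the second Zfx-cko array it passed (0.62, adjusted p = 0.0183). Sgce read 64.1 and 72.4 in Zfx-cko HSC, against 62.4 and 57.3 in Zfx-flox HSC, and Ndn 342 and 347 against 372 and 396. Both separated narrowly between the groups and neither passed (0.15 ± 0.12 and -0.15 ± 0.09, adjusted p = 0.363 and 0.203). Ppp1r9a, Mest, Magel2, Slc22a18, Kcnq1ot1 and Dlk1 also did not pass. Of the 3 Ppp1r9a probe sets tested in HSC, however, 1 other than the one used was lower (-0.54, adjusted p = 0.00227). It read 441 and 464 in Zfx-cko HSC, against 708 and 620 in Zfx-flox HSC.

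**Figure D3:**
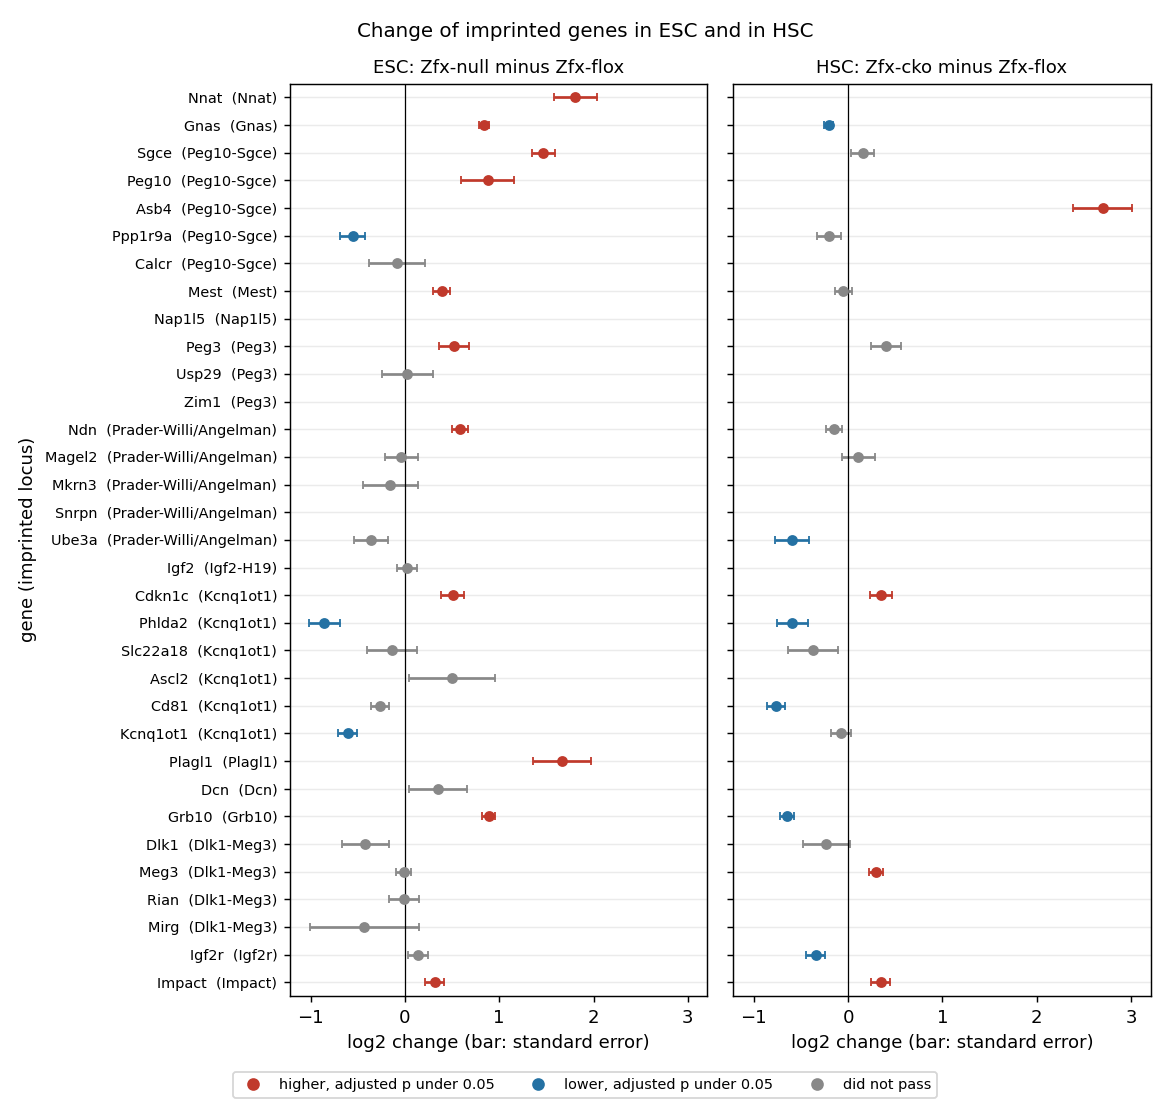
Log2 change of each imprinted gene with its standard error, Zfx-null minus Zfx-flox in ESC (left) and Zfx-cko minus Zfx-flox in HSC (right), ordered by locus and with untested genes left blank. In ESC, Nnat, Plagl1 and Sgce lie farthest to the right, and in HSC Asb4 does.

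Cell type markers also moved with the HSC groups. All 8 hematopoietic stem and progenitor markers tested were higher, with a sum of 13634 and 13896 in Zfx-cko HSC against 4742 and 5137 in Zfx-flox HSC. All 3 erythroid markers tested were lower, and the 4 with a probe set summed to 2469.8 and 2549 in Zfx-cko HSC against 8047 and 8084 in Zfx-flox HSC, and the globin Hba-a1 was between 14.8 and 25.7 on all HSC arrays. Of 5 megakaryocyte markers 3 were higher, as were all 3 endothelial markers tested, with Gp9 and Emcn among them tested through their higher group only. Of 5 lymphoid and NK markers, Cd3e, Cd3g and Cd79a lay between 2.41 and 29.6 on the HSC arrays, and Ms4a1 did not pass. Nkg7 was higher (1.34, adjusted p = 0.0374), with 2775 and 2993 in Zfx-cko HSC against 1130.5 and 1122 in Zfx-flox HSC. The part of these markers, and of the Gapdh ratios given above, in the changes of the imprinted genes was not tested.

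Single arrays decided 7 of the HSC calls. Ube3a lost its call without any 1 of the HSC arrays (adjusted p 0.0818 to 0.131). Cdkn1c lost it without any 1 of the ESC arrays, the first Zfx-cko array or the first Zfx-flox array (0.0714 to 0.236). Impact lost it without either Zfx-cko array or the first Zfx-flox array (0.0622 to 0.119). Phlda2 and Igf2r lost theirs without the second Zfx-cko array or either Zfx-flox array (0.0600 to 0.0877 for Phlda2 and 0.0534 to 0.154 for Igf2r). Meg3 lost it without the first Zfx-cko or the second Zfx-flox array (0.0688 to 0.0838), and Gnas without the second Zfx-cko or the second Zfx-flox array (0.0755 to 0.0776).

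The changes in the 2 cell types were compared for the 18 members tested in both. Of these, 8 differed between HSC and ESC, where 35.3% of all 11175 genes tested in both did, 17.6% higher and 17.7% lower in HSC. The HSC change was the lower for 7 members and the higher for 1, Kcnq1ot1. Grb10 rose in ESC and fell in HSC, a difference of -1.53 ± 0.10 (log2, SE, adjusted p = 3.14e-05), and so did Gnas, with -1.05 ± 0.07 (adjusted p = 4.27e-05). Sgce differed by -1.31 ± 0.17 (adjusted p = 0.000797) and Ndn by -0.73 ± 0.12 (adjusted p = 0.00229), each called in ESC and not in HSC. Of the 5 members called in both cell types, Cdkn1c and Impact were higher in both, Phlda2 was lower in both, and Gnas and Grb10 went opposite ways. With the mean of all probe sets of a gene, the difference was -0.18 for Sgce (adjusted p = 0.708) and -0.13 for Gnas (adjusted p = 0.719), and neither passed. For all 8 members that differed, the signal was higher on every ESC array than on every HSC array. The Zfx-flox levels of Gnas were close, at 2188 in ESC and 2064 in HSC. For the others the changes were compared across unlike levels.

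**Figure D4:**
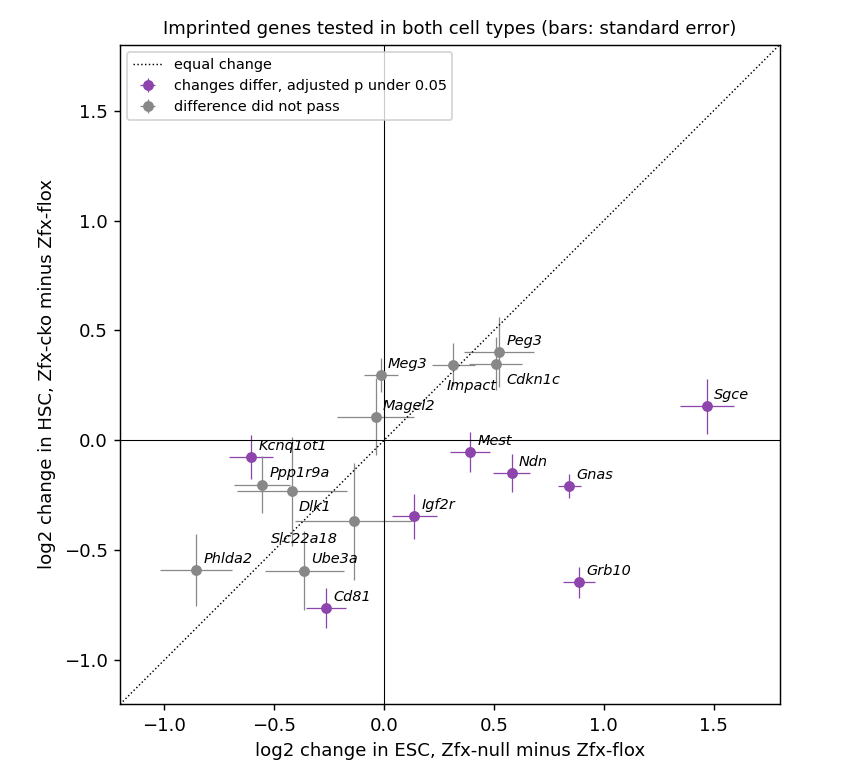
Log2 change in HSC (Zfx-cko minus Zfx-flox, vertical axis) against that in ESC (Zfx-null minus Zfx-flox, horizontal axis) for the 18 imprinted genes tested in both, with standard errors and a dotted line of equal change. Grb10 and Gnas lie at the lower right, and Cdkn1c, Impact and Phlda2 lie near the line.

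A second list held 51 other imprinted genes, 41 of them with a probe set. In ESC 5 of 33 tested were higher and 4 lower, and in HSC 8 of 31 were higher and 4 lower, with medians of 0.15 and 0.03. The shares over all genes were 15.7% higher and 14.9% lower in ESC, and 22.6% and 19.8% in HSC, so these counts lie near the background. Osbpl5, an oxysterol-binding protein gene of the Kcnq1ot1 locus, read 149.8 and 146 in Zfx-null ESC, against 6.86 and 14.8 in Zfx-flox ESC (2.71 ± 0.39); it reached the level for testing only through the Zfx-null arrays, so this is a description. Qpct, a glutaminyl cyclase gene, read 243 and 191 in Zfx-null ESC, against 32.5 and 58.3 in Zfx-flox ESC (1.98 ± 0.28, adjusted p = 0.00125). Gatm, which makes the creatine precursor, rose by 1.00 in ESC and by 0.94 in HSC. Gab1, a docking protein of growth factor receptors, changed by -0.54 in ESC and by 1.06 in HSC. In HSC, Ampd3, an AMP deaminase known from red cells, read 102 and 96.4 in Zfx-cko cells, against 518 and 521 in Zfx-flox cells (-2.23 ± 0.18, adjusted p = 3.27e-05). Sfmbt2 and Atp10a rose in HSC by 1.00 and 0.90. Art5 read 65.2 and 41.6 in Zfx-cko HSC, against 8.61 and 12.3 in Zfx-flox HSC, and it too reached the level only through the higher group.

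Neighbours from that list followed no common direction at the members' loci. Around Peg10 and Sgce, the paraoxonase gene Pon3 was higher in both cell types (1.08 in ESC and 0.50 in HSC). Pon2 was higher in ESC and lower in HSC (0.24 and -0.79), and Casd1 was lower in ESC and higher in HSC (-0.36 and 0.26). Beside Grb10, Cobl, an actin nucleator, was lower in Zfx-null ESC (-0.94 ± 0.20, adjusted p = 0.00784), where Grb10 was higher.

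Of 28 factors tested that set, keep or erase imprints, 10 were lower in Zfx-null ESC and 1, Arid4b, was higher (0.31), with a median of -0.22, where 14.9% of all genes were lower and 15.7% higher. Tet2 and Tet1, which oxidize 5-methylcytosine, changed by -0.94 and -0.70. The de novo DNA methyltransferase Dnmt3a changed by -0.55, and Uhrf1, which brings Dnmt1 to newly copied DNA, by -0.51. In HSC 6 of 26 were higher and 9 lower, with a median of -0.11, where 22.6% of all genes were higher and 19.8% lower. Tet1 read 1099 and 1108 in Zfx-cko HSC, against 363 and 449.6 in Zfx-flox HSC (1.42 ± 0.09, adjusted p = 1.04e-05). Dnmt3b rose by 0.93 and Dnmt3a by 0.68, while the retinoblastoma gene Rb1 changed by -0.75. Tet1 and Dnmt3a thus changed in opposite directions in the 2 cell types, with HSC minus ESC differences of 2.12 (adjusted p = 2.42e-05) and 1.22 (adjusted p = 0.000336).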

How the data were processed

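The deposited values are array intensities (signals) that the authors produced with GCOS 1.4, per the submitters' processing notes and the series' design text. They are on a linear scale, and the trimmed mean (2% off each end) was 250 on each of the 8 arrays. Of 45101 probe sets, 64 controls were left out, and the platform annotation gave 1 symbol to 34945, several to 932 and none to 9160. Values were used as log2(signal + 14.2). limma 3.58.1 in R 4.3.3 was fitted to all probe sets on 4 group means (lmFit with 4 residual degrees of freedom, then eBayes with trend), with Benjamini-Hochberg adjustment over all genes tested and a threshold of 0.05. The probe set brightest on average in log2 stood for its gene. The number of arrays limits the precision: the median standard error was 0.14 in ESC and in HSC.

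Every member with a probe set could be named. Of the other imprinted genes, up to 6 per comparison past the threshold with the largest changes and those at a member's locus were named, and of the imprint factors up to 4. Promoters were printed for Nnat, Plagl1 and Grb10, which had the largest called ESC changes among members with a promoter entry. Sgce had no entry, and Peg3 was added for the reason given above. The 46 member windows came from 30 members and included none of Impact. Their median CpG count and AGGCCT share thus leave that gene out. The members, their active alleles and the lists were chosen with earlier results of these data known. On simulated data, 100 genes were changed by 1 and 100 by 2 on the log2 scale in each cell type. The same fit recovered 68% and 77% of these in ESC and 66% and 83% in HSC. Far fewer genes were changed there than were called in the data, so these shares need not hold for the data. Alternatives covered the pseudocount, scaling, level filter, probe set choice, fit and single arrays. Permutation tests of 2 against 2 arrays were not made.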

Additional observations from a re-analysis of the deposited data

Results flagged for a closer look

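The change between genotypes differed between HSC and ESC for 8 members by the interaction term of limma. Grb10 differed by -1.53 on the log2 scale (-0.65 in HSC and 0.89 in ESC) and Gnas by -1.05 (-0.21 and 0.84). Sgce differed by -1.31 (0.15 and 1.47), Ndn by -0.73 (-0.15 and 0.58) and Mest by -0.44 (-0.05 and 0.39, adjusted p = 0.0285). Cd81 differed by -0.50 (-0.76 and -0.26, adjusted p = 0.0175) and Igf2r by -0.48 (-0.35 and 0.14, adjusted p = 0.0322). Kcnq1ot1 differed by 0.53 (-0.08 in HSC and -0.60 in ESC, adjusted p = 0.0216). The differences of Mest, Cd81, Igf2r and Kcnq1ot1 were lost without single arrays. Mest lost its call without any array but the first Zfx-cko and the second Zfx-flox HSC array (adjusted p 0.0563 to 0.0894), and Igf2r without any but the second Zfx-null ESC and the first Zfx-cko HSC array (0.0516 to 0.0981). Cd81 lost it without the first Zfx-flox ESC, the first Zfx-cko HSC or either Zfx-flox HSC array (0.0503 to 0.0610). Kcnq1ot1 lost it without either Zfx-flox ESC, the second Zfx-null ESC, the first Zfx-cko HSC or the first Zfx-flox HSC array (0.0593 to 0.355). With 2 arrays per group, no test for single outlying arrays was possible.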

How the results depend on the processing

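Of 32 calls of members in ESC, in HSC and in their difference, 8 were kept under every alternative in which the gene was tested, 24 were lost under at least 1 and 0 reversed. The 8 were Sgce, Ndn, Phlda2 and Grb10 in ESC, Cd81 and Asb4 in HSC (Asb4 tested through its higher group only), and the differences of Ndn and Grb10. The 11 members higher in ESC became 7 with no pseudocount, with the mean of all probe sets or without the variance trend, and 6 to 11 without single arrays. The 3 lower became 1 with the mean of all probe sets, and 3 to 4 without single arrays. The 4 higher in HSC became 2 under either quantile normalization, a filter at the 60th percentile, the mean of all probe sets or a fit of 1 cell type alone, 1 under median centring or without the variance trend, and 1 to 4 without single arrays. The 6 lower became 2 without the variance trend, and 2 to 6 without single arrays. The 8 differences became 5 with the mean of all probe sets, 4 without the variance trend and 4 to 7 without single arrays. The members' median change stayed within 0.03 to 0.20 in ESC and -0.20 to -0.08 in HSC without single arrays. With the replicate block, 11 members were higher and 4 lower in ESC, 4 higher and 6 lower in HSC, and 9 differed. The genes were not all the same: Cdkn1c in HSC no longer passed (adjusted p = 0.0675), and Peg3 in HSC (0.00969) and Cd81 in ESC (0.00424) did. Same-numbered arrays deviated together with a correlation of 0.35 in ESC and 0.09 in HSC over 2 pairs, so the numbers are not shown to pair the samples. Without the variance trend, all genes called were 2424 in place of 3879 in ESC and 2329 in place of 3945 for the difference. The cause of these shifts was not tested. Without a pseudocount, Plagl1 was represented by a probe set below the level and was not tested. Members with signals near 14.2, most of those in HSC, were measured with little signal over background. The numbers of members are small, so 1 or 2 genes move each count.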

Other observations

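Probe sets annotated to 2 genes were assigned to neither. The probe set shared by Mir675 and H19 moved in opposite directions in the 2 cell types. It read 45.0 and 52.5 in Zfx-cko HSC, against 24.0 and 27.9 in Zfx-flox HSC (0.65 ± 0.15 on the log2 scale, limma adjusted p over all probe sets = 0.0100), and was lower in Zfx-null ESC. A probe set shared by Snurf and Snrpn, the bicistronic paternal transcript of the Prader-Willi/Angelman locus, read 993 and 762 in Zfx-null ESC, against 1339 and 1222 in Zfx-flox ESC (-0.55 ± 0.16, adjusted p = 0.0423). The other 3 Snurf and Snrpn probe sets tested in ESC changed by -0.27, -0.31 and -0.32 and did not pass. In HSC the 2 tested changed by 0.18 and 0.04 and did not pass either. The probe set annotated to both Airn and Igf2r was below the level in both cell types.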
